A study of Mus musculus with 6 samples.

Results

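The 39 Hox genes of the mouse, which lie in the clusters HoxA, HoxB, HoxC and HoxD, were followed in the maxillary prominence of embryos at E12.5. They were chosen by name as the protein-coding genes of the 4 clusters in the GENCODE annotation, and all 39 were found among the 53801 gene lines of the count files. On GRCm38 (mm10) the 11 HoxA genes lie on the reverse strand of chromosome 6. On forward strands, the 10 HoxB genes span chr11:96194316-96368256, the 9 HoxC genes chr15:102921103-103036852 and the 9 HoxD genes chr2:74668310-74765142. Bulk RNA-seq had been made from 3 samples of wild-type C57BL/6J embryos (WT) and 3 samples of Wnt1cre; Rosa26Dlx2/- embryos (Dlx2OE), with no other groups. In Dlx2OE, 1 Rosa26 allele carried a CAG promoter, a loxP-flanked stop and a Flag-tagged Dlx2. The Cre driven by Wnt1 removed the stop in the neural crest lineage, while epithelium, endothelium and blood in the same dissected tissue lie outside that lineage. By the labels the RNA came from 7 littermates and by the methods of the study from 6, so a sample may pool embryos, and the labels do not say whether WT embryos carried either allele alone.

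Hox genes encode homeodomain transcription factors that give cells a position along the head-to-tail axis. Within a cluster, genes of low paralog number lie toward the 3' end and are known to be active earlier and further forward in the embryo than genes of high number. Cranial neural crest that enters the first pharyngeal arch, from which the maxillary prominence grows, is known to be Hox-negative, whereas crest of the arches behind it carries Hox genes, Hoxa2 first of all. Polycomb proteins are known to keep Hox clusters silent, and retinoic acid and Wnt signals are known to open them from the 3' end.

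Total counts on genes ran from 30332754 to 31308813 in WT and from 26155500 to 30570784 in Dlx2OE, and 3 counts, used here as the detection floor, were worth 0.0955 to 0.111 CPM (counts scaled to library size by TMM). Reads outside genes were 5.34 to 5.79% of uniquely mapped reads in WT and 6.03, 8.21 and 15.4% in Dlx2OE replicates 1, 2 and 3, so the third Dlx2OE library stood apart. Dlx2 itself rose from 41.0 ± 5.32 to 124 ± 5.96 CPM (SD, n = 3 each), which is 1.60 on the log2 scale (SE 0.118, edgeR adjusted p = 0.00241). A gene is called here when edgeR gives an adjusted p below 0.05 together with a log2 fold change beyond 1 in either direction. All 12 maxillary mesenchyme markers were over the floor in every WT library, and their summed level was 1770 to 2170 CPM in WT and 2260 to 2770 CPM in Dlx2OE.

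In WT tissue the Hox clusters were close to the detection floor. The 39 genes together took 207 of the 92846479 gene counts of the 3 WT libraries, or 2.23 CPM unscaled. In Dlx2OE they took 1905 of 86173057, or 22.1 CPM. Of the 39, 12 had no count in any of the 6 libraries, 14 had some counts but never more than 3, and 13 passed 3 counts in at least 1 library. A count of 0 allows up to 3 counts in that library, so these genes were not detectable at this depth rather than absent, and intervals and floors cover counting error only. Only Hoxa2 and Hoxd8 exceeded the floor in all 3 WT libraries, and 8 genes did so in all 3 Dlx2OE libraries. By the rule of every library, the label Hox-negative thus held for WT to within 2 genes with at most 20 counts each, while 7 genes passed the floor in some WT library. In Dlx2OE, Hoxd1 had the most counts of the 39, at 164 to 679.

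The plot of raw counts lays out the genes by cluster and paralog group.

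**Figure D1:**
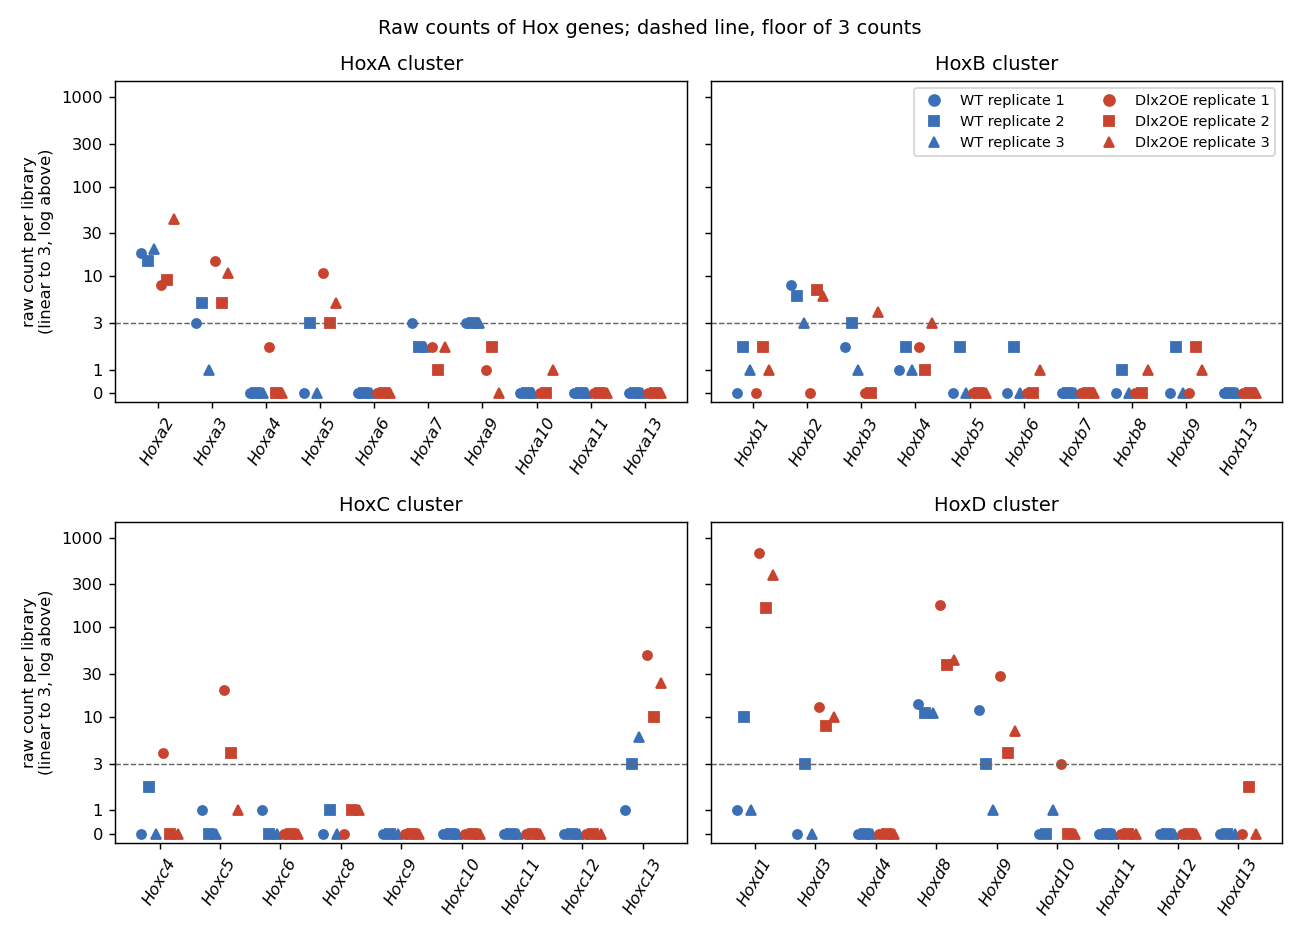
Raw counts of Hox genes in each library (vertical axis, linear to 3 and logarithmic above), by cluster and in order of paralog group (horizontal axis); blue, WT; red, Dlx2OE; marker shape, replicate; dashed line, the floor of 3 counts. Most genes lie at or under the line in all 6 libraries, Hoxd1 reaches 679 counts in Dlx2OE, and the counts over 30 drawn for Dlx2OE belong to Hoxa2, Hoxc13, Hoxd1 and Hoxd8.

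Of the 39, only 4 had enough counts for the test across all genes, among them Hoxa2, Hoxd1 and Hoxd8. In Dlx2OE 3 of the 4 rose, among them Hoxd1 and Hoxd8, and Hoxa2 did not pass. Among all 17514 genes tested, 1.50% were called higher and 1.62% were called lower. At an adjusted p under 0.05 and any fold change, 2.99% of genes were higher and 3.46% lower, and the same 3 Hox genes were on the higher side. No Hox gene was called lower by edgeR or DESeq2, and none reached an unadjusted p under 0.05 in that direction. A gene that is near 0 in WT can enter the test only through its Dlx2OE counts, so 3 of 4 is no rate for the family. Without the filter on low counts 27 Hox genes had a value, 8 had an unadjusted p under 0.05 and 4 were called higher, the fourth being Hoxc13. Of all 33556 genes with a count, 19.3% had such an unadjusted p and 1.51% were called higher. DESeq2 called the same 4 genes, against 2.45% of the genes to which it gave an adjusted p.

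The 6 Hox genes whose level was higher in every Dlx2OE library than in every WT library included Hoxc5, Hoxc13, Hoxd1, Hoxd3 and Hoxd8. They are 6 of the 13 genes over the floor in any library, and 14.6% of all genes over the floor in any library behaved so. Of those 13, 6 passed the floor only in Dlx2OE, which favours that direction. Hoxc5 was higher in every Dlx2OE library only through scaling, as WT replicate 1 and Dlx2OE replicate 3 both had 1 count (0.0342 and 0.0369 CPM). Hoxa9 was the 1 gene lower in every Dlx2OE library, with 3, 3 and 3 counts in WT against 1, 2 and 0 in Dlx2OE, all at or under the floor.

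Hoxd1 (ENSMUSG00000042448, chr2:74762980-74765142) showed the largest rise of the Hox genes tested. It belongs to paralog group 1, lies at the 3' end of HoxD, and is known in the mouse for its role in pain-sensing sensory neurons. It had 1, 10 and 1 counts in the 3 WT libraries against 679, 164 and 381 in the 3 Dlx2OE libraries. The groups did not overlap, and the lowest Dlx2OE library held more than 10 times the counts of the highest WT library. The level rose from 0.133 ± 0.172 to 14.1 ± 8.85 CPM (SD, n = 3 each), and the log2 fold change was 6.68 (SE 0.848, edgeR adjusted p = 0.0104), a fold of 103. From summed counts the rate ratio was 105 with a 95% counting interval of 59.8 to 204, and the exact permutation test over the 6 libraries gave p = 0.1, the smallest that 3 against 3 allows. The call held without each library in turn, with adjusted p up to 0.0478 and log2 fold changes from 6.13 to 8.55, the highest without WT replicate 2, which held 10 of the 12 WT counts. Among the 262 genes called higher, Hoxd1 ranked 2 by fold and 38 by p. In WT its mean level exceeded that of 0.234% of the genes tested and in Dlx2OE that of 46.8%. In bulk tissue, more Hoxd1-expressing cells and more Hoxd1 RNA per cell cannot be told apart.

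Next to Hoxd1 lies Haglr (ENSMUSG00000075277, chr2:74748422-74762896), a long noncoding RNA transcribed away from it on the other strand. In GENCODE M21 the starts are separated by 83 bases, and the genes share no exon sequence. Haglr had 0, 3 and 0 counts in WT against 126, 36 and 74 in Dlx2OE. It rose with a log2 fold change of 6.18 (SE 0.904, edgeR adjusted p = 0.0140), and the rate ratio from summed counts was 80.9 with a 95% counting interval of 27.3 to 395. The call was lost without WT replicate 1 and without WT replicate 2, at a highest adjusted p of 0.0633. Reads of Haglr were 15.7, 18.0 and 16.3% of the reads of both genes in Dlx2OE replicates 1, 2 and 3, with 95% Wilson intervals of 13.3 to 18.3, 13.3 to 23.9 and 13.2 to 19.9%. These intervals overlapped, while the Hoxd1 counts of the 3 libraries ran from 164 to 679.

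The sequence between these starts is shown because Hoxd1 and Haglr, the HoxD transcripts with the largest rises in the test, begin at its ends. The 250 bases before the Hoxd1 start, chr2:74762730-74762979 on the forward strand of GRCm38.p6 (RefSeq), are given 5' to 3', and the capitals mark the 83 bases between the starts of Haglr and Hoxd1.
Hoxd1 promoter: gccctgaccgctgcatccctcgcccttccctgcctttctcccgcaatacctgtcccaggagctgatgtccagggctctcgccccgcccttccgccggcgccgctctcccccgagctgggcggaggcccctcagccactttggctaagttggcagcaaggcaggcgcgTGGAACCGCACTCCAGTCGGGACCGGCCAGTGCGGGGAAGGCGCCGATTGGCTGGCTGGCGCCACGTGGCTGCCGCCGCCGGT

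With 50 further bases, this window was 69.7% GC, against a median of 52.7% over all 32851 mouse promoter windows of the same length and 57.7% over the 24 Hox windows, which belong to 22 of the 39 genes. Letters chosen with the sequences in view were searched on both strands. CTTTGAT is a TCF/LEF motif, which answers Wnt signals. TAATTA is a homeodomain motif of the kind Dlx proteins bind. Its variant TAATTG was searched as well. The half-site of nuclear receptors was searched as AGGTCA. The motif of the TATA-binding protein was searched as TATAAA. None was found in the Hoxd1 window, which says only that these letters are not there.

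Hoxd8 (ENSMUSG00000027102, chr2:74704615-74707933), a central HoxD gene, had 14, 11 and 11 counts in WT against 177, 38 and 43 in Dlx2OE. It was over the floor in every library and the groups did not overlap, but Dlx2OE replicate 1 held more than the other Dlx2OE libraries together. The level went from 0.399 ± 0.0692 to 2.92 ± 2.65 CPM (SD, n = 3 each), with a log2 fold change of 2.86 (SE 0.647, edgeR adjusted p = 0.0426) and a rate ratio of 7.37 (95% counting interval 5.18 to 10.8). The call rests on the spread of all 6 libraries: it was lost on removal of any library but Dlx2OE replicate 1, at adjusted p up to 0.167, and without that replicate the log2 fold change was 1.79 and the call stood. Its promoter is printed because it was the only one of the 24 Hox windows that held CTTTGAT. The bases are chr2:74704365-74704614 on the forward strand of GRCm38.p6 (RefSeq), 5' to 3', with matches to the searched letters in capitals.
Hoxd8 promoter: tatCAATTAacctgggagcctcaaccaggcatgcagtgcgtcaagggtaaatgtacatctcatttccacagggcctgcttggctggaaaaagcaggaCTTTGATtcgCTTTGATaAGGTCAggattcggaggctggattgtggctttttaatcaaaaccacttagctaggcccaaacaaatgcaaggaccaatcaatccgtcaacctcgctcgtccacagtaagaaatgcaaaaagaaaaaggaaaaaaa

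CTTTGAT stands at positions -153 to -147 and -143 to -137 from the Hoxd8 start, AGGTCA at -135 to -130, and TAATTG on the reverse strand at -247 to -242. At least 1 CTTTGAT is held by 3.73% of the 32851 windows and at least 2 by 0.1%, while AGGTCA is held by 16.3%, TAATTG by 8%, TATAAA by 13.6% and TAATTA by 5.29%. Of the 24 Hox windows, 7 held AGGTCA, among them those of Hoxd4 and Hoxd10, and 2 held TAATTG, those of Hoxd8 and Hoxd10. A match is a description of letters and not a bound site.

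The other HoxD genes had fewer counts. Hoxd3 had 0, 3 and 0 in WT and 13, 8 and 10 in Dlx2OE, without overlap, and a rate ratio of 10.6 (95% counting interval 3.31 to 54.3). It missed the threshold without the filter (log2 fold change 3.24, edgeR adjusted p = 0.061), and 62.8% of its exon sequence is shared with other annotated genes, whose reads the counting discards. Since the counting is not stated to use strand, reads of antisense partners cannot be told apart where they overlap. Hoxd9 had 12, 3 and 1 counts in WT against 29, 4 and 7 in Dlx2OE, so the groups overlapped (rate ratio 2.57, 95% counting interval 1.41 to 4.92). Hoxd10 and Hoxd13 never passed 3 counts, and Hoxd4, Hoxd11 and Hoxd12, of which Hoxd4 shares 52.3% of its exon sequence, had none.

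**Figure D2:**
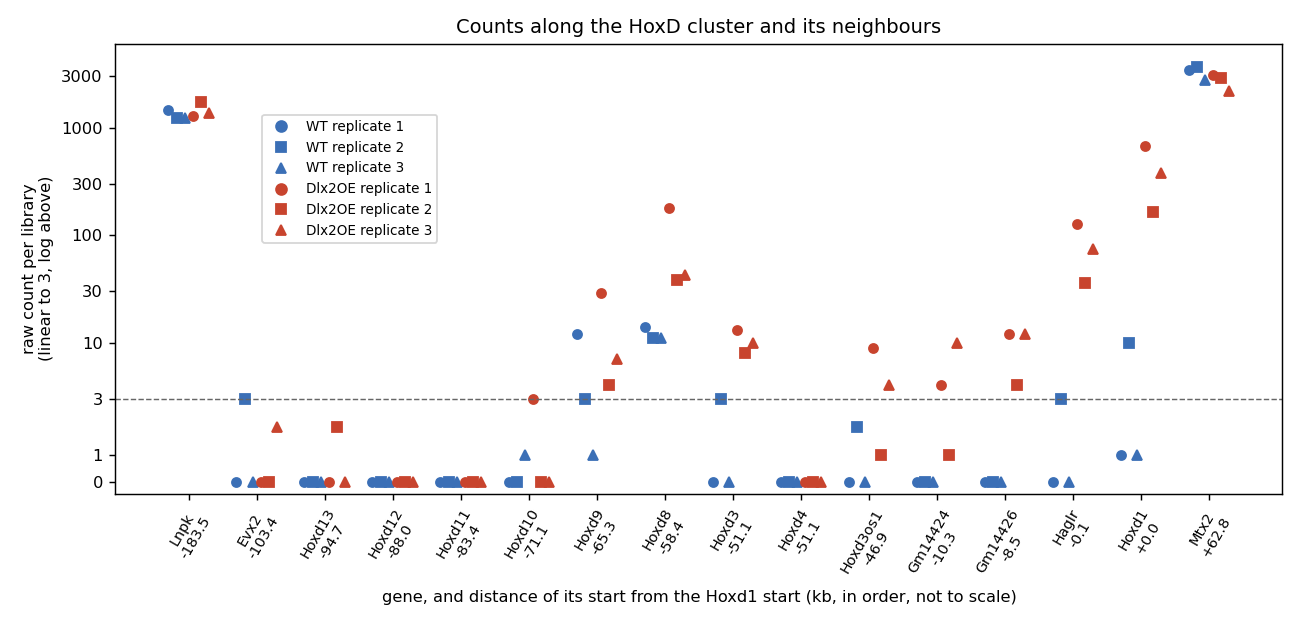
Raw counts (vertical axis, linear to 3 and logarithmic above) of the genes of the HoxD cluster and of selected neighbours in order along the chromosome, with the distance of each start from the Hoxd1 start in kb; blue, WT; red, Dlx2OE; dashed line, the floor of 3 counts. In Dlx2OE, counts are high at Hoxd1 and Haglr, intermediate at Hoxd8, and at most 3 from Hoxd10 to Hoxd13, while Lnpk and Mtx2 outside the cluster overlap between genotypes.

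Hoxa2, which patterns the arch behind the first, had the most counts of the Hox genes in WT, with 18, 15 and 20. In Dlx2OE it had 8, 9 and 44. Both Dlx2OE replicates 1 and 2 lay under all WT libraries and replicate 3 lay above them, so the groups overlapped. The log2 fold change was 0.29 (SE 0.684, edgeR adjusted p = 0.794), the exact permutation p of the CPM was 1, and without Dlx2OE replicate 3 the log2 fold change was -1.06. In CPM, WT stood at 0.585 ± 0.0765 and Dlx2OE at 0.727 ± 0.777 (SD, n = 3 each). The noncoding Hoxaas2 inside HoxA was also highest in that library, with 1, 12 and 1 counts in WT against 14, 5 and 78 in Dlx2OE (log2 fold change 2.87, edgeR adjusted p = 0.158).

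Hoxa3 and Hoxa5 in HoxA also passed the floor in some libraries. Hoxa3 had 3, 5 and 1 counts in WT against 15, 5 and 11 in Dlx2OE, a rate ratio of 3.54 (95% counting interval 1.65 to 8.46). Hoxa5 had 0, 3 and 0 in WT and 11, 3 and 5 in Dlx2OE, a rate ratio of 6.51 (95% counting interval 1.92 to 34.4). In both genes 1 Dlx2OE library equalled the highest WT library, and neither was called without the filter (edgeR adjusted p = 0.211 for Hoxa3 and 0.236 for Hoxa5). Hoxa4, Hoxa7, Hoxa9 and Hoxa10 had at most 3 counts, and Hoxa6, Hoxa11 and Hoxa13 had none.

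HoxC held Hoxc13 at its 5' end, which is known for its role in hair and nail. It had 1, 3 and 6 counts in WT against 49, 10 and 24 in Dlx2OE, and the groups did not overlap. The filter left it out of the main test. Without the filter its log2 fold change was 3.05 (SE 0.671, edgeR adjusted p = 0.0103), DESeq2 gave 3.12 (adjusted p = 0.00718), and the rate ratio was 8.53 (95% counting interval 4.42 to 18.4). Hoxc5 had 1, 0 and 0 counts in WT against 20, 4 and 1 in Dlx2OE, so most of its counts came from 1 library (log2 fold change without the filter 4.21, edgeR adjusted p = 0.0711). Hoxc4 passed the floor in 1 library only, with 0, 2 and 0 counts in WT against 4, 0 and 0 in Dlx2OE. Hoxc6 and Hoxc8 had at most 1 count in any library, and Hoxc9, Hoxc10, Hoxc11 and Hoxc12 had none.

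HoxB was the cluster without a higher level in Dlx2OE. Hoxb2, a hindbrain gene, had 8, 6 and 3 counts in WT against 0, 7 and 6 in Dlx2OE (rate ratio 0.786, 95% counting interval 0.351 to 1.72). Hoxb3 passed the floor in 1 library, with 2, 3 and 1 counts in WT against 0, 0 and 4 in Dlx2OE, and 52.9% of its exon sequence is shared with other genes. Hoxb1, Hoxb4, Hoxb5, Hoxb6, Hoxb8 and Hoxb9 had at most 3 counts, and Hoxb7 and Hoxb13 had none. In Dlx2OE replicate 1, where the Hox sum was highest, only 1 of the 10 HoxB genes had any count.

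By cluster, the sums of counts in the 3 WT and the 3 Dlx2OE libraries were 27, 27 and 14 against 901, 216 and 441 in HoxD. HoxC had 3, 6 and 6 against 73, 15 and 26, HoxA had 30, 30 and 27 against 84, 44 and 74, and HoxB had 11, 20 and 6 against 2, 12 and 17. HoxD, HoxC and HoxA were thus higher in every Dlx2OE library than in every WT library, and HoxB overlapped. The rate ratio was 23.6 for HoxD (95% counting interval 18.5 to 30.5), 7.81 for HoxC (4.54 to 14.4), 2.39 for HoxA (1.85 to 3.11) and 0.861 for HoxB (0.517 to 1.43). The exact permutation test of the summed CPM gave p = 0.1 for HoxD, HoxC and HoxA, the smallest possible value, and p = 0.8 for HoxB. Without Hoxd1, HoxD kept a rate ratio of 6.13 (4.61 to 8.29). Without Hoxa2, HoxA had 4.26 (2.91 to 6.40), and without Hoxc13, HoxC had 6.37 with overlapping groups, at 2, 3 and 0 counts against 24, 5 and 2. These 2 removals were chosen after the values were seen.

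The make-up of the Hox counts differed with these sums. In WT, HoxA gave 42.0% of the Hox counts and HoxD 32.9%, and the leading genes were Hoxa2 with 25.6% and Hoxd8 with 17.4%. In Dlx2OE, HoxD gave 81.8% and HoxA 10.6%, and Hoxd1 alone gave 64.3%. These are shares of raw counts, which also depend on gene length. Per kb of exon, the mean level in Dlx2OE was 7.56 CPM for Hoxd1, 1.07 for Hoxd8 and 0.410 for Hoxa2, and of these 3 Hoxd1 alone stood apart, as the spread of the others overlapped. Among the same 3 genes in WT, Hoxa2 came first with 0.329 CPM per kb, before Hoxd8 with 0.145 and Hoxd1 with 0.0713, and only the step from Hoxa2 to Hoxd8 was free of overlap between libraries.

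**Figure D3:**
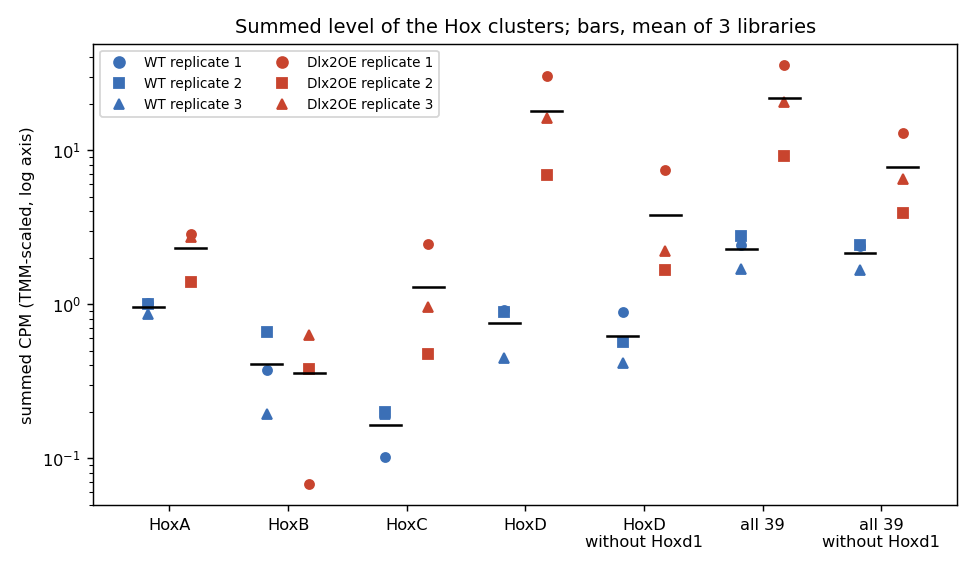
Summed TMM-scaled CPM (logarithmic axis) of each Hox cluster, of HoxD without Hoxd1, and of all 39 Hox genes with and without Hoxd1, in each library; blue, WT; red, Dlx2OE; bars, mean of 3 libraries. HoxD rises most (0.756 to 17.9 CPM), HoxB overlaps between genotypes, and Dlx2OE replicate 1 is highest in every sum but HoxB.

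Counts were also summed over the clusters by paralog group. Group 8 went from 14, 13 and 11 to 177, 39 and 45, and group 13 from 1, 3 and 6 to 49, 12 and 24, while group 2 had 26, 21 and 23 in WT and 8, 16 and 50 in Dlx2OE. Groups 3 and 5 were higher in every Dlx2OE library, with rate ratios of 3.77 (95% counting interval 2.21 to 6.75) and 7.54 (3.20 to 21.6). Groups 4, 6, 7, 9 and 10 overlapped between genotypes, and groups 11 and 12 had no count in any library. Hoxb1, the paralog of Hoxd1 in HoxB, had 0, 2 and 1 counts in both genotypes.

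The Dlx2OE libraries differed widely from each other. Of the 13 genes over the floor, Dlx2OE replicate 1 held the highest Dlx2OE level in 10, replicate 3 in Hoxa2 and Hoxb3, and replicate 2 in Hoxb2. The summed Hox level was 35.8, 9.14 and 20.6 CPM in Dlx2OE replicates 1, 2 and 3, against 1.70 to 2.75 CPM in WT.

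**Figure D4:**
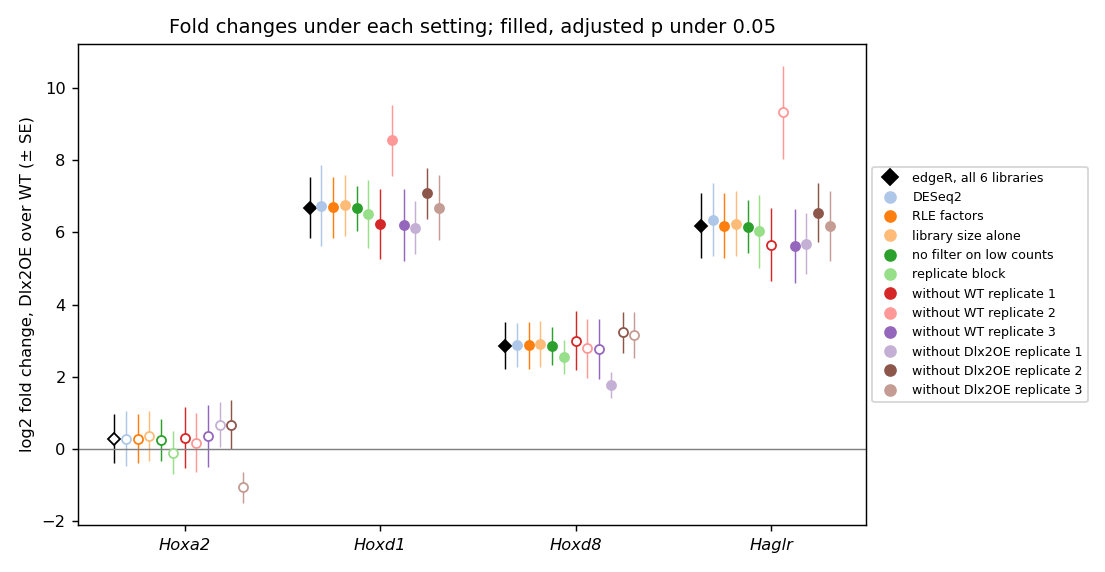
Log2 fold change of Dlx2OE over WT with its standard error (vertical axis) for Hoxa2, Hoxd1, Hoxd8 and Haglr, under each setting; black diamond, edgeR with all 6 libraries; filled symbols, adjusted p under 0.05. Hoxd1 stays between 6.13 and 8.55 and filled throughout, Hoxd8 stays positive but is open in some settings, and Hoxa2 falls to -1.06 without Dlx2OE replicate 3; the value of Haglr without WT replicate 2 is set against 2 WT libraries at 0 and is not a bound.

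Few of the other genes in and around the clusters passed the test. Inside the clusters lie 46 other annotated genes, of which 36 never passed 3 counts, 3 were tested and Haglr alone was called. Gm11539, a processed pseudogene in HoxB, had 21, 22 and 13 counts in WT against 8, 2 and 4 in Dlx2OE (log2 fold change -1.93, edgeR adjusted p = 0.0656). Gm14426, which lies within the span of Haglr on the other strand, had no count in WT and 12, 4 and 12 in Dlx2OE. It was called only without the filter (edgeR adjusted p = 0.0126), and as use of strand is not stated, its reads may come from Haglr transcripts. Of the 24 protein-coding genes nearest to the clusters, 3 on each side, 19 were tested and none was called by edgeR or DESeq2, with 8 at an unadjusted p under 0.05 and a median log2 fold change of -0.11, against 0.0028 over all genes tested. That unadjusted p was reached by 29.5% of all genes tested. The smallest p belonged to Nfe2l2 (log2 fold change -0.54, adjusted p = 0.0538), Atp5g2 (-0.69, 0.0714) and Skap2 (0.69, 0.114), all from edgeR. Nfe2l2 lies 910370 bases from HoxD, Atp5g2 248750 bases from HoxC and Skap2 143040 bases from HoxA. Lnpk and Mtx2, on either side of HoxD, had log2 fold changes of 0.21 and -0.24 (edgeR adjusted p = 0.310 and 0.299). Evx1, the homeobox gene beside HoxA, had 2, 3 and 3 counts in WT against 14, 4 and 8 in Dlx2OE, without overlap, but too few for the test.

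Genes that act with or on Hox genes were measured as well. The 9 Pbx, Meis and Pknox genes, whose proteins bind DNA together with Hox proteins, were all tested and none was called by edgeR or DESeq2, with 0 at an unadjusted p under 0.05 and a median log2 fold change of -0.01. Meis3 had the smallest p (log2 fold change 0.33, edgeR adjusted p = 0.185). Of 25 listed regulators upstream of Hox genes, mostly of retinoic acid signalling, 19 were tested, 4 had an unadjusted p under 0.05 (against the same 29.5% of all genes), none was called by edgeR and 1 by DESeq2. Cyp26a1, which degrades retinoic acid, fell from 18.2 to 9.54 CPM (log2 fold change -0.93, SE 0.224, edgeR adjusted p = 0.0496) and did not reach the fold threshold, and its adjusted p held in 2 of 6 fits without 1 library. Cyp26b1, of the same family, had a log2 fold change of 1.15 (edgeR adjusted p = 0.0515) and was the gene called by DESeq2, and the receptor gene Rarg had 0.45 (edgeR adjusted p = 0.0558). Of 22 Polycomb and trithorax genes, all tested, none was called by edgeR or DESeq2, and 6 had an unadjusted p under 0.05, a share close to that of all genes. At an adjusted p under 0.05 and a smaller fold, 3 rose and none fell, where 2.99% of all genes rose and 3.46% fell: Kmt2d by a log2 fold change of 0.98 (SE 0.117, edgeR adjusted p = 0.00929), Kmt2a by 0.68 (SE 0.137, 0.0333) and Ash1l by 0.47 (SE 0.110, 0.0450). Without each library in turn, that adjusted p held in 5 of 6 fits for Kmt2d, 2 for Kmt2a and 1 for Ash1l. All 3 encode histone methyltransferases of the trithorax side, which is known to keep Hox genes active. The median log2 fold change of the 22 genes was 0.15.

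Other cell types in the dissected tissue can carry Hox genes, so their markers were set beside the Hox levels. The 12 pan-neuronal markers, all over the floor, summed to 225 to 532 CPM in WT and to 350, 916 and 1930 CPM in Dlx2OE replicates 1, 2 and 3. The 14 sensory neuron markers summed to 285 to 393 CPM in WT and to 230, 341 and 626 CPM. Neuronal markers were thus lowest of the Dlx2OE libraries in replicate 1, where Hoxd1, Hoxd8 and Hoxc13 were highest, and highest in replicate 3, where Hoxa2 and Hoxaas2 were highest. Pou4f1, a defining sensory neuron gene picked after its values were seen, had 21, 70 and 19 counts in WT against 10, 633 and 1642 in Dlx2OE. The 13 hindbrain and spinal cord markers summed to 127 to 206 CPM in WT and to 92.1, 56.7 and 71.9 CPM in Dlx2OE, with 2 markers called lower, among them Sox2, and Egr2 had at most 7 counts.

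The 8 epithelial markers summed to 661 to 1140 CPM in WT and to 1600, 526 and 506 CPM in Dlx2OE, while Krt8 and Krt18 were called lower. Dlx2OE replicate 1, the library with the most Hoxd1, Hoxd8 and Hoxc13, exceeded WT in this sum through Krt5 and Krt14. The other 6 markers summed to 489 to 799 CPM in WT and to 577, 292 and 247 CPM in Dlx2OE. Without Krt5 and Krt14, replicate 1 was thus within the WT range and still the highest Dlx2OE library. The 9 genes listed for trunk and limb mesoderm summed to 164 to 196 CPM in WT and to 265, 161 and 224 CPM in Dlx2OE. Tbx5, Tbx18 and Pax1 were called higher and Meox2 and Pax9 called lower. Pax9 (2623, 2810 and 3662 counts) and Meox2 (1736, 1449 and 1601 counts) had the most WT counts of the 9. The WT sum thus rests mainly on Pax9 and Meox2. Pax1 alone gave 4.27 to 12.4 CPM in WT and 159, 61.7 and 105 CPM in Dlx2OE. The sum rests on different genes in the genotypes and is no measure of trunk or limb tissue. Without Pax1 the sums were 160 to 189 CPM in WT and 106, 98.9 and 119 CPM in Dlx2OE. These removals of single markers were chosen after the values were seen. Of these 9 genes 8 were over the floor in every WT library, and Tbx5 alone had no count in WT. The 6 glial markers summed to 141 to 148 CPM in WT and to 93.2, 190 and 316 CPM, with Foxd3 at 0 throughout. The 5 markers of the mandible and the arch behind it were at 61 to 73.1 CPM in WT and 58.4 to 60.9 CPM in Dlx2OE. Endothelial markers were at 292 to 435 against 209 to 327 CPM, erythroid markers at 2560 to 3310 against 1600 to 2140 CPM, macrophage and blood markers at 57.1 to 66.3 against 35 to 44.9 CPM and muscle markers at 154 to 302 against 67.1 to 205 CPM. The part of these cell types in the Hox levels was not tested.

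**Figure D5:**
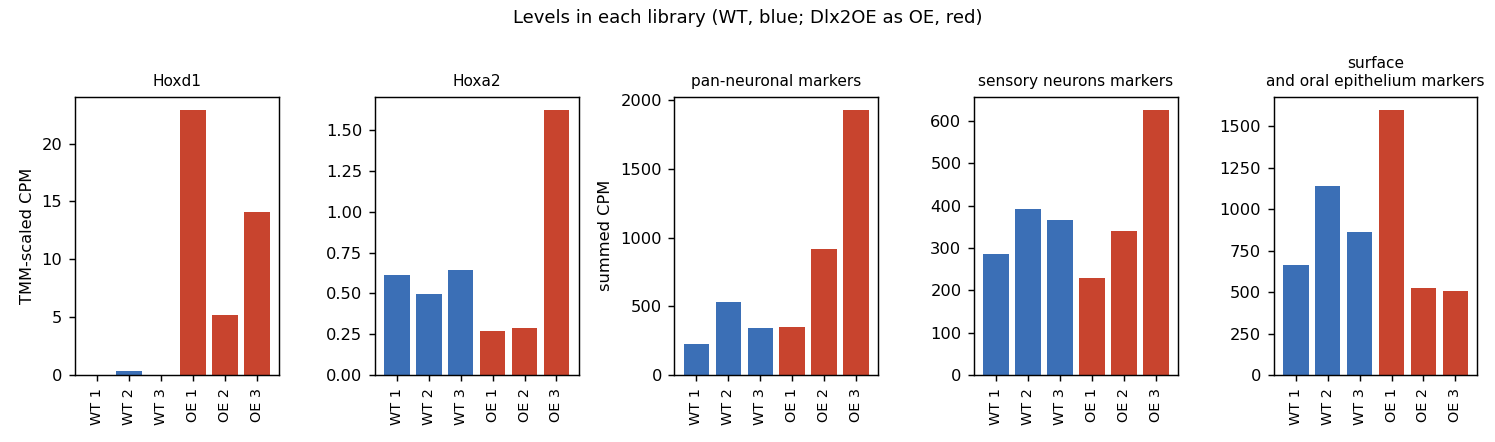
Level in each library of Hoxd1 and Hoxa2 (TMM-scaled CPM) and of the summed markers of neurons, sensory neurons and epithelium (summed CPM), each panel with its own axis from 0; blue, WT; red, Dlx2OE. Hoxd1 is highest in Dlx2OE replicate 1 and Hoxa2 in replicate 3, and neuronal markers are highest in replicate 3. The epithelial sum is highest in Dlx2OE replicate 1, which exceeds WT through Krt5 and Krt14.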

How the data were processed

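RNA of maxillary prominences was sequenced as poly(A) libraries on an Illumina instrument. The authors mapped reads to mm10 with STAR 2.7.3a, counted them per gene with HTSeq 0.12.4 in union mode, and deposited raw counts. Annotation release and strand setting are not given in the sources used here. Groups and replicate numbers came from the sample labels. The sources do not say which of the littermates make up each sample, so p-values measure the spread between these samples.

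Names and positions came from GENCODE M21 (GRCm38), in which 53706 of the 53801 identifiers were found. The main test was the quasi-likelihood F test of edgeR 4.0.16 in R 4.3.3, with filterByExpr (minimum count 10), TMM scaling, genotype as the only term and Benjamini-Hochberg adjustment over the 17514 genes kept. CPM were TMM-scaled. Rate ratios compare summed counts with exact conditional 95% intervals, in scipy 1.17.1. Summed CPM were compared by exact two-sided permutation of libraries. The floor was 3 counts. The 39 genes, the lists and the markers were chosen with earlier results of these data known. All Hox genes over the floor in some library were selected for naming by their counts, and from every other list the called genes and the 3 of smallest p. A few genes that meet these rules are not reported here, and sums and counts include them.

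Tried as alternatives were DESeq2 1.42.0, RLE factors, library size alone, no filter, at least 10 counts in every library, a replicate block, any fold change, and leaving out each library. The script was tested on simulated counts of 17514 genes, of which 200 were shifted by 2 on the log2 scale. It recovered 87.5% of the 200, and 12 of its 187 calls were false. The 200 were drawn only from genes over a minimum mean CPM, so the recovery does not cover genes near the floor. Reads were not realigned.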

Additional observations from a re-analysis of the deposited data

How the results depend on the processing

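Over all genes, the 262 called higher and 284 called lower became 452 and 442 with DESeq2, 506 and 497 without the filter, 524 and 606 at any fold change, and 39 to 642 and 35 to 531 without 1 library, lowest without WT replicate 2 and highest without Dlx2OE replicate 1. The 3 Hox genes called higher became 1 (Hoxd8) at a minimum of 10 counts in every library, by construction of that filter, and 1 to 3 without 1 library, with 1 left without WT replicate 1, WT replicate 2 or Dlx2OE replicate 2. Called genes inside the clusters (1) became 2 without the filter, 0 at the minimum of 10 counts, and 0 to 2 without 1 library. Called upstream regulators (0) became 1 with DESeq2, library size alone, no filter or the minimum of 10 counts (Cyp26b1), 1 at any fold change (Cyp26a1), and 0 to 1 without 1 library. Called Polycomb and trithorax genes (0) became 1 with library size alone (Kmt2d), 3 at any fold change, and 0 to 1 without 1 library. The cause was not tested for these.

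The log2 ratio of the HoxA sum (1.27) became 2.08 without Hoxa2. That of HoxD without Hoxd1 (2.60) ranged from 1.64 to 2.96 without 1 library, lowest without Dlx2OE replicate 1. Without that library HoxC had 2.13 and HoxD 3.94, against 2.98 and 4.56. The HoxB sum (-0.19) ranged from -0.87 to 0.34 without 1 library. Hox genes over the floor were 2 in every WT library and 7 in any, and 8 in every Dlx2OE library, 13 in any and 4 at a minimum of 10 counts. Hoxa2 (0.29) changed sign to -0.095 with the replicate block, and ranged from -1.06 (without Dlx2OE replicate 3) to 0.68 without 1 library. Deviations of same-numbered samples correlated at -0.07, -0.21 and 0.07. The highest correlation of any WT with any Dlx2OE sample was 0.34, for WT replicate 1 with Dlx2OE replicate 2. These values give no sign that the replicate numbers pair the samples, but they cannot exclude a shared litter or batch. With the block, 202 genes were called higher and 196 lower, and the same 3 Hox genes were called. At this depth 26 of 39 Hox genes lay at or under the floor and could not be compared.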
